A study of Mus musculus with 4 samples.

Results

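The Notch pathway genes described here are 39 genes of the mouse genome, chosen by name for their part in Notch signalling, out of 21900 protein-coding genes. A peak of DHX9 binding was given to a gene when its midpoint lay in the gene's RefSeq span (assembly GRCm38.p6, mm10). In all, 13 of the 39 genes held at least 1 peak, and together they held 467 of the 43106 peaks of the list (1.08%). DHX9 is a helicase that opens double-stranded RNA. The RNA bound to it was mapped by FLASH, a method that crosslinks RNA and protein with ultraviolet light, pulls the protein down with an antibody and sequences the attached RNA fragments. The cells were neural progenitor cells derived from the male embryonic stem cells WT26, whose strain is given as C57BL/6x129sV, and were kept in N2B27 medium with 10 ng/ml of EGF and of FGF2. Libraries with the DHX9-Rb antibody (2 biological replicates) were set against libraries with rabbit IgG (2 biological replicates), all from the same line with no other treatment or genotype, so that the line and its growth factors are shared by all 4.

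The deposited values were 1 list of peak positions for the 4 libraries together. Depth per library, a score per peak and the spread between replicates were therefore unknown, and no test between replicates could be made; the counts below describe this list. Absence of a peak means that none was called, which does not separate unbound from unexpressed RNA, since expression was not measured. Of 10 neural progenitor markers, 6 held a peak (Vim, Fabp7, Slc1a3, Ptprz1, Nfia and Nfib). The same held for 1 of 5 neuron markers (Map2) and 0 of 4 markers of pluripotent stem cells. Among all protein-coding genes 18.9% held one, and among the longest 10% of them 39.7% did. The counts for neurons and stem cells rest on too few genes to set them apart from the 18.9%. The markers were chosen with earlier results of this list known, so they are no independent check of the cell label. Sox2, Pax6 and Nes were among the progenitor markers without a peak, so the list alone does not establish the cell type.

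Notch signalling passes from cell to cell. A ligand of the Delta or Jagged family on one cell binds a Notch receptor on its neighbour. The receptor is then cut by an ADAM protease and by gamma-secretase, and its intracellular domain enters the nucleus. There it joins the DNA-binding protein RBPJ and a Mastermind coactivator (the Maml genes) and switches on targets such as the Hes and Hey repressors. In neural progenitors this pathway is known for holding cells back from becoming neurons.

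The 3 Mastermind genes hold most of the peaks described below, and the 300 bases around their annotated start sites (250 before and 50 from the start on) are shown to mark where their transcripts begin. They come from RefSeq, are written 5′ to 3′ on the strand of the gene, and carry in capitals the core recognised by RBPJ (TGGGAA, or TTCCCA where it lies on the opposite strand).
Maml2, first listed start (GRCm38.p6, chr9:13297708-13298007, plus strand): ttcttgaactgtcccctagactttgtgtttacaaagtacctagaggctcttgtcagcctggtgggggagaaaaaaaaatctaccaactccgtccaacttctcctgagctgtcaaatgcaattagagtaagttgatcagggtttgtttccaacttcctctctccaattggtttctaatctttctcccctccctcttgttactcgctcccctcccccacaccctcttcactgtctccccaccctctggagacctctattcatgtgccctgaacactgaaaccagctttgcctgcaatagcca
Maml2, second listed start (GRCm38.p6, chr9:13662210-13662509, plus strand): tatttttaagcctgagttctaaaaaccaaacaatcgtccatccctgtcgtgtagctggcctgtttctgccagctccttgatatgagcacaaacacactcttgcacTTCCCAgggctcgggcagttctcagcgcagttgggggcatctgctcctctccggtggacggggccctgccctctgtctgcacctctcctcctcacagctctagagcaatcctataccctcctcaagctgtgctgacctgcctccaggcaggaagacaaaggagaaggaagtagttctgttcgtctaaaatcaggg
Maml1 (GRCm38.p6, chr11:50292287-50292586, minus strand): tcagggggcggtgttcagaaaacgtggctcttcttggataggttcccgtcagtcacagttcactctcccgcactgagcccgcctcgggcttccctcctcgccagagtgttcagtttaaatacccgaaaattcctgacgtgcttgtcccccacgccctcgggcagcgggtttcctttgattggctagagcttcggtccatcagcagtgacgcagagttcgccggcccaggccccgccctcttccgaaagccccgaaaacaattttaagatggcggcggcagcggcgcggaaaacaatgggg
Maml3 (GRCm38.p6, chr3:52104957-52105256, minus strand): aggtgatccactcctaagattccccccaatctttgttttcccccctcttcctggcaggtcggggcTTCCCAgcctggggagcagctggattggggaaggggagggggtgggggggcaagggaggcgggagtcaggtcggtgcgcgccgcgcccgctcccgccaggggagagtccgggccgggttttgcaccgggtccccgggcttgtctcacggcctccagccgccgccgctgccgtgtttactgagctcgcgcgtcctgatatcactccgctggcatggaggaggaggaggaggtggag

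The second start of Maml2 held the core with its first base 145 bases upstream of the start, and Maml3 held it 185 bases upstream. In the windows of Maml1 and of the first start of Maml2 these letters were not found. Over all 32851 windows of this length that RefSeq lists, 25.6% held the core on either strand. Among the members, 30 had at least 1 such window. The core was in 6 of 15 windows of members with a peak and in 4 of 23 windows of members without one. Both windows of Rbpj are among the 6. Its starts, at 53590346 and 53590486, are so close that the windows overlap, and the same site may count for both. The windows of the Mastermind genes differed in composition. The first start of Maml2 had a G+C content of 48% and 2 CG dinucleotides, against 24 CG dinucleotides for Maml1 (G+C content 59.3%) and 22 for Maml3 (68.3%). The median member window had 23 CG dinucleotides, with a range from 2 to 63, and the median of all listed windows was 7. The first start of Maml2 was thus at the low end of the members for this count.

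By role, peaks were found in 5 of 7 classes. The nuclear complex (Rbpj, Maml1, Maml2, Maml3, Snw1 and Spen) held 413 of the 467 peaks, in 5 of its 6 genes. The 4 receptors held 25 peaks in 2 genes, the 8 ubiquitin ligases and Numb proteins 22 peaks in 3 genes, the 3 Fringe glycosyltransferases 5 peaks in 1 gene, and the 5 protease genes 2 peaks in 2 genes. None of the 6 ligand genes and none of the 7 target genes held a peak. Of all protein-coding genes 18.9% held one, and among genes as short as most of these fewer did: 3.01% in the length decile of 5 of the target genes and 12.1% in that of the Dll genes.

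**Figure D1:**
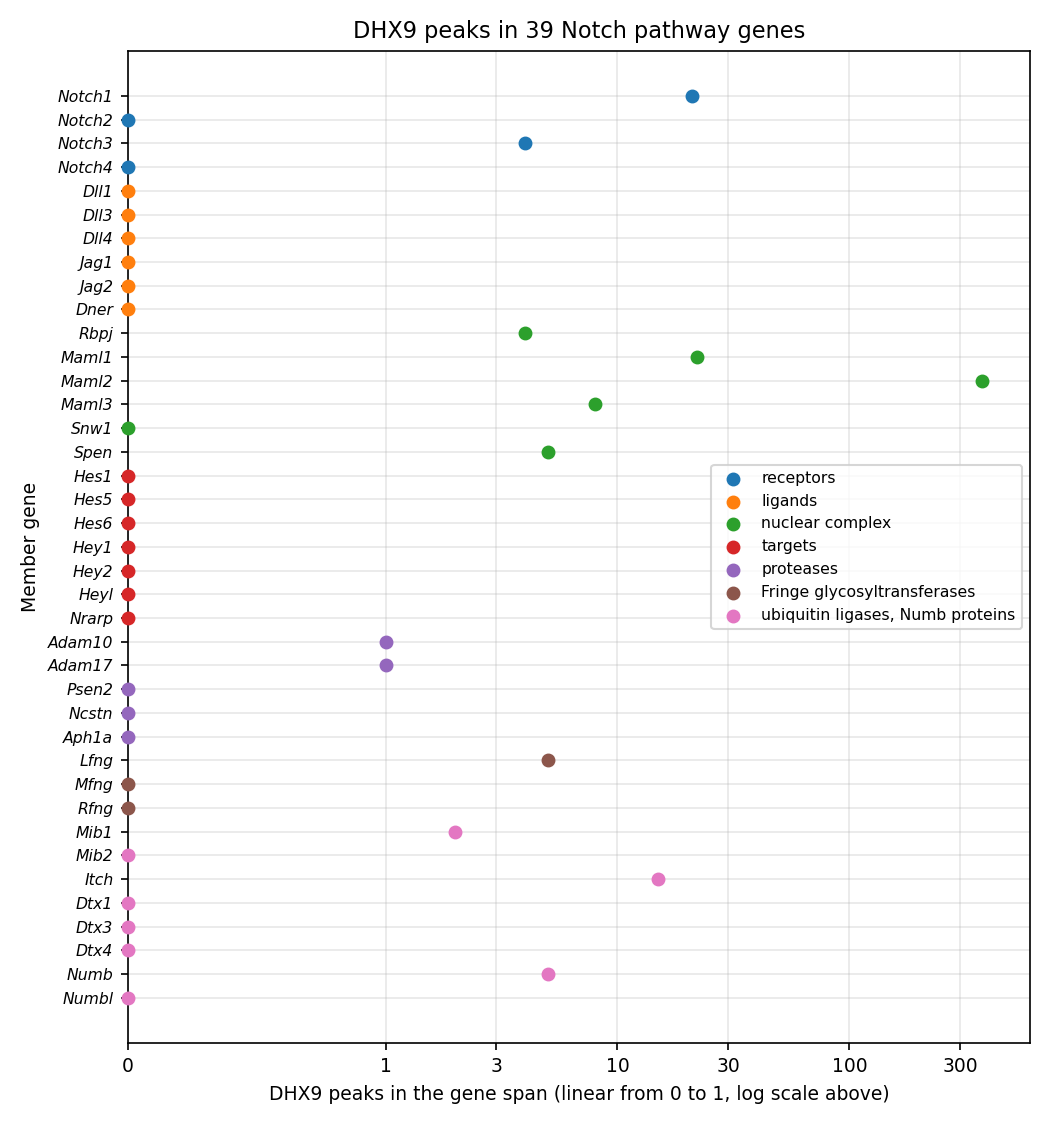
Number of DHX9 peaks (x axis, linear from 0 to 1 and logarithmic above) in each of the 39 genes (y axis), coloured by role. Maml2 stands at 374 and every other gene at 22 or fewer; the ligands and the target genes all stand at 0.

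The share of members with a peak, 33.3%, compares with 18.9% of all protein-coding genes. For at least 3 peaks the values were 25.6% of members and 11.4% of all protein-coding genes, and for at least 5 peaks they were 20.5% and 8.22%. Gene length went with these counts. The 13 genes with a peak had a median span of 93.0 kb and the 26 without one a median of 15.6 kb. Of the 16 members in the 3 longest length deciles of protein-coding genes (spans from 35.8 kb), 12 held a peak, where 34.6% of all genes of those lengths did. Of the 23 shorter members only Lfng did, where 12.1% of all genes of those lengths held a peak. The members' count thus lay above the background among long genes. Among short ones it rested on Lfng alone, too few genes to set it apart from the background. No test was made of either, since the genes were chosen with earlier results of this list known.

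**Figure D2:**
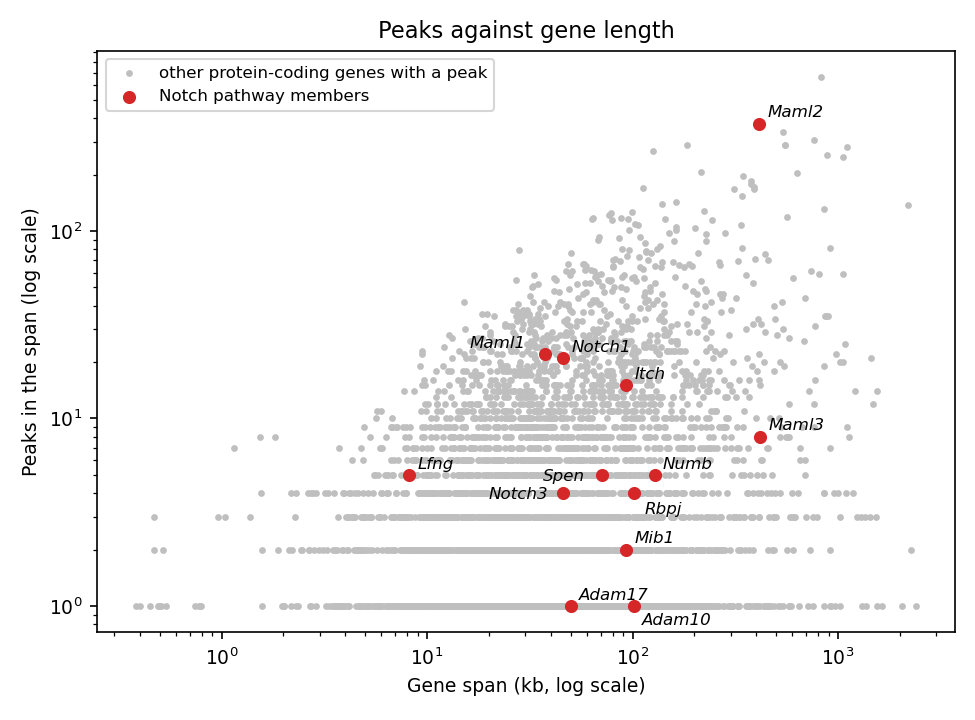
Peaks per gene (y axis, log scale) against the length of the gene span in kb (x axis, log scale) for protein-coding genes with a peak (grey) and the 13 members among them (red). Maml2 lies near the top of all genes, while Maml3, of nearly the same length (418.0 kb against 413.0 kb), holds 8 peaks.

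Maml2, which encodes a Mastermind coactivator, held 374 peaks, or 80.1% of the members' total. Its span lies on chromosome 9 from 13296561 to 13709533 and is transcribed from the plus strand, and all 374 peaks were on that strand. In no other annotated gene lay 368 of them. The noncoding genes Phxr4 (13431361 to 13432751) and Gm51666 (13582400 to 13610409), both within Maml2, held the midpoints of 5 and 1. Maml2 was second in number of peaks among all protein-coding genes. By density, 0.906 peaks per kb, it was in place 195 of the 1801 protein-coding genes with at least 5 peaks. The lengths of its peaks added up to 18.2% of the span, with overlapping bases counted for each peak.

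The peaks of Maml2 lay in 2 blocks. The first block ran from 13300710 to 13324155 and held 58 peaks, 2.50 per kb. Then 97083 bases followed without any peak, from 13324156 to 13421238. The second block, from 13421239 to 13574457, held 309 peaks, 2.02 per kb. Beyond the second block, over the last 135.2 kb of the span, only 7 peaks were found, 0.0518 per kb. These lay 312.9, 331.5, 331.9, 364.9, 372.2, 372.3 and 373.7 kb from the 5′ edge. The blocks were defined after the positions were seen, as the stretches bounded by the 2 longest distances between neighbouring peaks (97.3 kb and 35.1 kb), and together they held 98.1% of the gene's peaks.

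**Figure D3:**
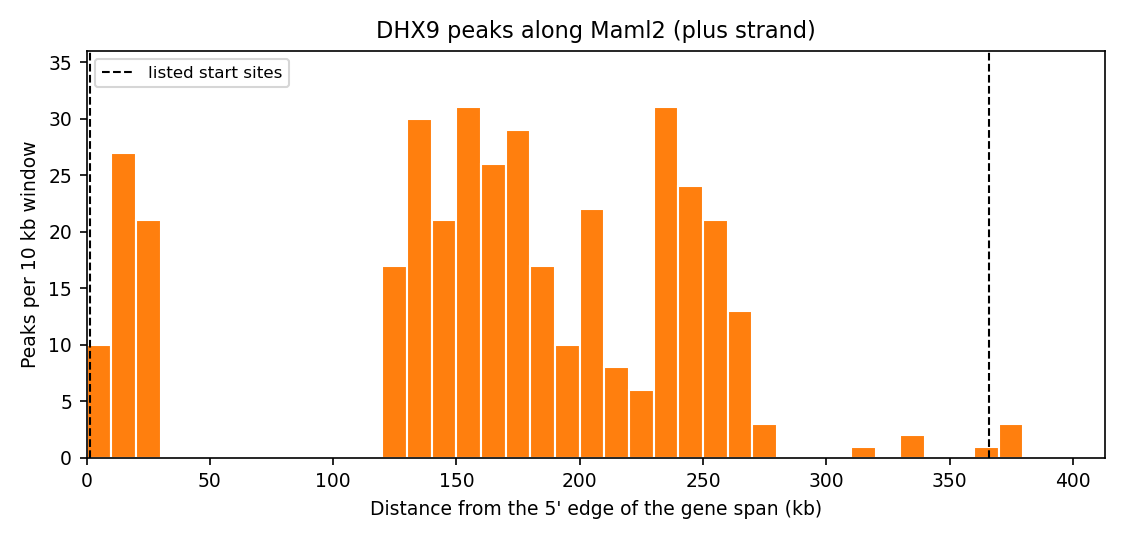
Peaks of Maml2 per 10 kb window (y axis) against distance from the 5′ edge of the gene span in kb (x axis); dashed lines mark the 2 listed start sites. Of 42 windows, 11 hold at least 20 peaks and 19 are empty, and the highest value is 31.

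Both listed start sites of Maml2 were free of peaks. The first peak had its midpoint 2824 bases after the first start. The second start, at 13662460, lies 365.9 kb into the span. Before it lay 371 of the 374 peaks, the nearest of them 1021 bases upstream, and after it lay 3, the nearest 6256 bases downstream. The 371 peaks thus lay outside any transcript begun at the second start. The last 39.2 kb of the span held none.

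The peaks were close together. Over the whole gene, the median distance between neighbouring midpoints was 341 bases, with the middle part of the distances between 245.5 (25th percentile) and 529.5 bases (75th percentile). Of 373 distances, 273 (73.2%) were under 500 bases. Within the blocks the medians were nearly the same, 341 and 337 bases. Joining neighbours closer than 500 bases gave 55 runs of at least 2 peaks and 46 peaks on their own, and 9 runs held 10 peaks or more, 147 in total. The run with the most peaks held 27 over 7.63 kb of the first block (13310306 to 13317932). The lengths of its peaks added up to 80.3% of this stretch, with overlapping bases counted for each peak. The next run of 23 peaks, at 13421239 to 13428356, began the second block, and the third run, of 22 peaks, lay at 13444818 to 13451287.

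Single peaks of Maml2 had a median length of 175 bases and ran from 58 to 650. The median of the whole list was 153 bases, and 64.4% of the Maml2 peaks were at least that long. In the first block the median length was 222.5 bases and in the second 169. For comparison, 44 protein-coding genes (0.201%) held 100 or more peaks. Among these 44, Maml2 was in place 6 for short median spacing (range over the 44 genes 314.5 to 825 bases), in place 9 for median peak length (145 to 199.5 bases) and in place 17 for peaks per kb (0.0628 to 2.13). Its 97.3 kb stretch without a peak was in place 11 by length, and in place 10 as a share of the span (23.6%, against a median of 13.1% and a highest value of 43.6%). A peak-free stretch of this size was therefore not particular to Maml2 among genes with many peaks.

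The other Mastermind genes differed from Maml2 in number and layout. Maml1 (chromosome 11, 50255634 to 50293131, minus strand) held 22 peaks over 37.5 kb, all on the minus strand and in no other gene. Its density, 0.587 per kb, was nearer to that of Maml2 than the counts of 22 and 374 would show. The first Maml1 peak lay 2.78 kb from the 5′ edge of the span, 1.99 kb after the listed start, and the last 36.9 kb from it. Between 9 and 12 kb lay 7 of the peaks and between 30 and 32 kb another 5. The median position was 38.6% of the span, against 41.4% for Maml2. Both are close to the 37.9% over all protein-coding genes with a listed strand, so this is not particular to the Mastermind genes. Canx, whose span lies upstream of Maml1, held the midpoints of 3 further minus-strand peaks within 5 kb of the Maml1 span, and these were not counted for Maml1.

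Maml3 (chromosome 3, 51687320 to 52105319, minus strand) is of nearly the same length as Maml2 and held 8 peaks, 0.0191 per kb, all on the minus strand. That is 1 peak for each 52.3 kb. A pair of peaks lay 2.02 and 3.08 kb from the 5′ edge. Single peaks followed at 74.0 and 111.1 kb, a group of 3 lay between 124.9 and 126.0 kb, and the last was at 268.6 kb. The longest distance without a peak, 142.6 kb, was longer than the one in Maml2.

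Rbpj, the DNA-binding partner of the Notch intracellular domain, held 4 peaks (chromosome 5, 53555779 to 53657445, plus strand). Of these, 3 lay together between 45.6 and 46.0 kb into the span and the last at 87.7 kb. Both listed starts of Rbpj lie well inside the span, and the nearest peak was 10.9 kb after a listed start. Spen, which encodes a corepressor that binds RBPJ, held 5 minus-strand peaks (chromosome 4, 141467885 to 141538644, 0.0707 per kb), between 18.7 and 31.6 kb from its 5′ edge. Snw1, a splicing factor also known as a cofactor of RBPJ, was the member of the nuclear complex without a peak (span 22.4 kb).

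Among the receptors, Notch1 held 21 peaks (chromosome 2, 26457902 to 26503822, minus strand, 0.457 per kb), all on the minus strand and in no other gene. The peaks of Notch1 lay in the first part of the gene. The first was 2.44 kb from the 5′ edge and the last 16.3 kb, so the following 29.7 kb held none, and 15 of the 21 lay within 10 kb of the edge. Notch3 (chromosome 17, 32120820 to 32166896, minus strand) showed a like layout with 4 peaks, 3 of them between 3.90 and 4.35 kb and the last at 6.72 kb from the 5′ edge of its 46.1 kb. Notch2 held none over 136.8 kb. In its length decile 39.7% of protein-coding genes had a peak, so most genes of that length held none either. Notch4, whose product is best known from blood vessels, held none over 24.3 kb.

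The 6 ligand genes were without a peak. Dll1, Dll3 and Dll4 are short (8.23 to 9.88 kb), and 12.1% of protein-coding genes in their length decile held a peak. Jag1 (35.1 kb) and Jag2 (22.0 kb) are longer. Dner, a neural ligand-like protein, was the longest member with none (326.4 kb), in a length decile where 39.7% held a peak. Of the target genes, Hes1, Hes5, Hes6, Hey1 and the feedback inhibitor Nrarp have spans of 1.75 to 3.68 kb, a length decile in which 3.01% of genes held a peak, so that the absence of a peak in these 5 is close to the background. Hey2 (10.4 kb) and Heyl (16.3 kb) were without a peak too.

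The genes that cut the receptor held few. Adam10, the main protease that sheds Notch after ligand binding, held 1 plus-strand peak 24.4 kb into its span (chromosome 9, 70678944 to 70780229), and Adam17, a related protease, held 1 minus-strand peak 2.81 kb into its span (chromosome 12, 21323509 to 21373632). The gamma-secretase subunit genes Psen2, Ncstn and Aph1a held none. A plus-strand peak 1.90 kb upstream of Ncstn lay in Copa, on the strand opposite to Ncstn.

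Lfng, which encodes a Fringe enzyme that adds sugars to Notch and so changes its response to ligands, held 5 plus-strand peaks within only 8.21 kb (chromosome 5, 140607341 to 140615545). This is 0.609 per kb, the second highest density of the members after Maml2. The peaks lay at 2.24, 2.56, 4.21, 7.90 and 8.02 kb from its 5′ edge, so that the last pair was at the 3′ edge. Past the 3′ edge, 2 more plus-strand peaks lay at 0.564 and 1.68 kb, in no annotated gene, and were not counted. Lfng was also the shortest member with a peak. Its paralogs Mfng (17.6 kb) and Rfng (3.51 kb) held none.

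Itch, a ubiquitin ligase that acts on Notch, held 15 plus-strand peaks (chromosome 2, 155133481 to 155226855, 0.161 per kb). Of these, 10 lay between 5.31 and 13.3 kb from the lower edge of the span and 5 were spread from 25.7 to 83.0 kb. The strand of Itch was not in the tables used, so its 5′ edge was taken from the strand of its peaks. Numb, which encodes an endocytic inhibitor of Notch that is passed unequally to daughter cells, held 5 minus-strand peaks (chromosome 12, 83794034 to 83921942). They lay between 99.0 and 107.7 kb into its 127.9 kb span, which is 19.4 to 28.1 kb after the nearest of the 3 listed starts of the gene. The density was 0.0391 per kb. The first peak also lay in the noncoding gene Gm46367. Mib1, the ubiquitin ligase that activates ligands, held 2 plus-strand peaks, both inside the noncoding gene Mir133a-1hg as well, so the source of these is uncertain. Mib2, Dtx1, Dtx3, Dtx4 and Numbl held none.

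**Figure D4:**
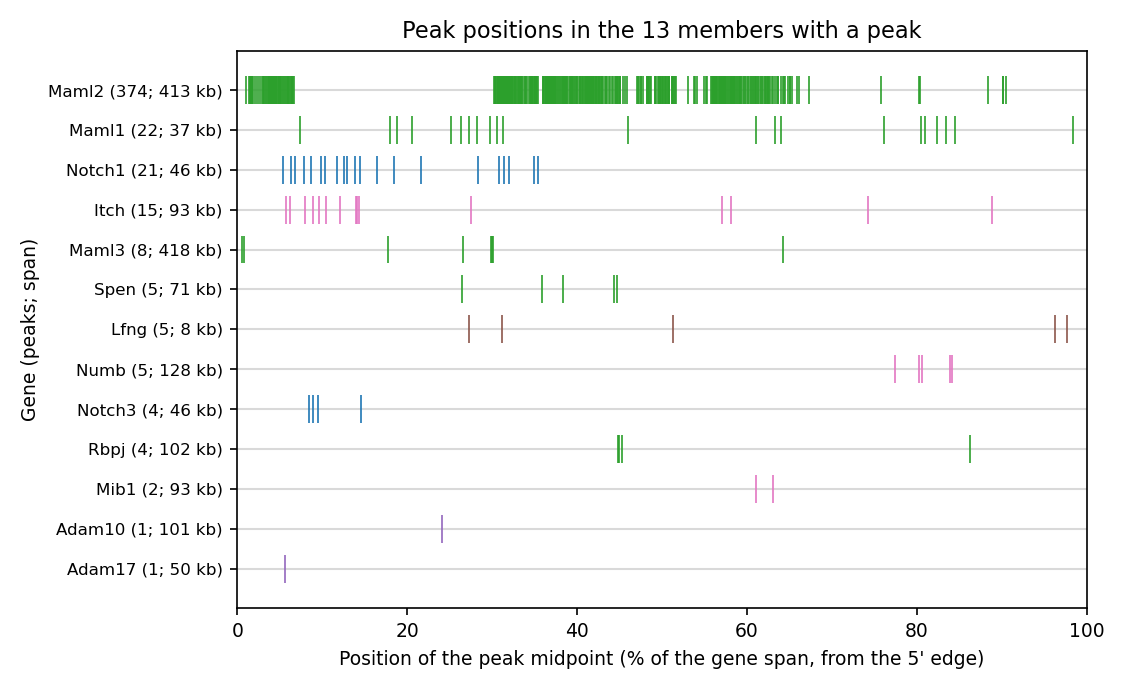
Midpoint of every peak (ticks) as a percentage of the gene span from the 5′ edge (x axis) in the 13 members with a peak (y axis, with the number of peaks and the span). The peaks of Notch1 and Notch3 lie in the first 35.4% and 14.6% of the span, those of Numb between 77.4% and 84.2%, and those of Maml2 in 2 blocks.

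The strand was uniform. Gene strand was listed for 11 of the 13 members with a peak, and all 450 peaks in these 11 genes were on it. Over the 3293 protein-coding genes with a listed strand and at least 1 peak, 98.5% of peaks were on the gene's strand, so this is a property the members share with the list. In Itch and Mib1, with no listed strand, all peaks of each gene were on the plus strand.

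Along the gene, the 12 members other than Maml2 had 67 of their 93 peaks (72.0%) in the first 50% of the span and 38 (40.9%) in the first 25%. Over all protein-coding genes with a listed strand, counting peaks on that strand, 62.4% lay in the first 50% and 35.5% in the first 25%. Of the 13 members, 10 had their median position in the first 50% of the span, where 55.7% of 3211 genes did. Maml2 differed from both, since the stretch from 10 to 30% of its span was empty and the one from 30 to 40% held 29.9% of its peaks. Maml1, Notch1 and Itch alone supply 58 of the 93 peaks, so the members' distribution rests mainly on these genes.

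**Figure D5:**
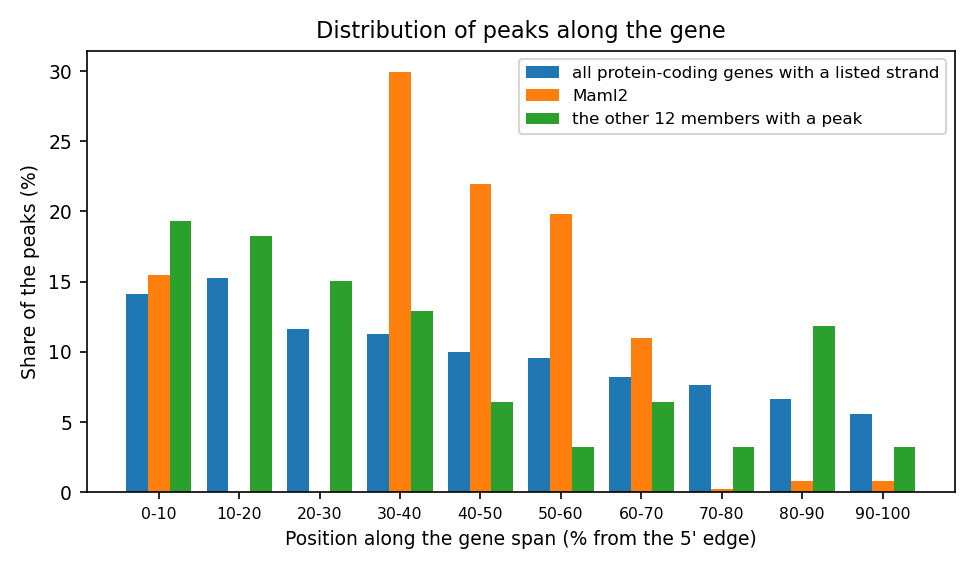
Share of peaks (y axis, %) in successive bins of 10% of the gene span from the 5′ edge (x axis) for all protein-coding genes with a listed strand, for Maml2 and for the other 12 members with a peak. The list as a whole goes from 14.2% in the first bin and 15.3% in the second down to 5.57% in the last, while Maml2 has none between 10 and 30% of its span and 29.9% between 30 and 40%.

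The genes on either side of Maml2 held few peaks. Ccdc82, which ends 4.04 kb before the Maml2 span, held none over 45.6 kb. Mtmr2, a lipid phosphatase gene that begins 37.7 kb after it, held 1 plus-strand peak over 61.6 kb. The high count at Maml2 thus did not extend into the adjacent protein-coding genes. The reference used listed microRNA hairpins in 3 members, Mir6996 in Notch1, Mir6941 in Jag2 and Mir5126 in Dner, and none was overlapped by a peak. The nearest Notch1 peak was 17.5 kb from Mir6996. No hairpin was listed in Mib1, although its peaks lie in the noncoding gene Mir133a-1hg. The listing may therefore be incomplete, and hairpins missing from it were not examined.

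A further list of 44 genes of the pathway was also counted, none of them among the 39. A peak was found in 17 of these (38.6%, against 18.9% of all protein-coding genes). This list was not set against genes of like length. The share of all protein-coding genes with a peak rose with length, from 0.868% in the shortest length decile to 39.7% in the longest. Nedd4, a ubiquitin ligase of the same family as Itch, held 118 plus-strand peaks (chromosome 9, 72662331 to 72749851, 1.35 per kb), a higher density than Maml2. The corepressor gene Ncor1 held 37 (0.261 per kb), of which 36 were on the minus strand and 1 on the plus strand. The histone deacetylase gene Hdac1 held 18, the coactivator genes Crebbp and Ep300 held 16 and 7, and the kinase gene Cdk8 held 14. Cbl, a ubiquitin ligase gene, held 8. Pofut1, which encodes the enzyme that adds fucose to Notch, held 6, the Groucho-related gene Tle5 also 6, and the ligand-like Dlk1 held 4. A single peak was found in each of Atxn1, Ccnc, Cntn1, Ctbp2, Tle2 and Tle3. The remaining 27 genes held none.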

How the data were processed

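The data were the peaks of 2 DHX9 and 2 rabbit IgG libraries. The authors deposited 1 peak list; per the file itself the caller was PEAKachu, and each line gives a position and a strand without a score. Bowtie2 2.2.6 and the builds hg19 and mm10 appear in the submitters' processing notes; the peaks were read as mm10. Version, settings and threshold of the peak caller, the treatment of reads that map to several places, and depth per library are not given in the sources used here, so reads shared by paralogs or repeats may be placed by unknown rules. No count, interval or p-value between replicates could be had, and libraries were grouped by their titles.

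Peaks were assigned by midpoint to spans of 49980 RefSeq genes (GRCm38.p6) with Python 3.11.15 and pandas 2.3.3; a peak in overlapping genes counted for each. Gene strand and start sites came from a RefSeq table of promoter sequences, which lists strand for 17492 protein-coding genes; exons were not used here, so introns and exons were not told apart. Density is peaks per kb of span. Length deciles were formed over 21900 protein-coding genes. Background is the share of those genes with the same minimum of peaks. The counting was tested on simulated data. Members with 5 or more peaks were described by density, strand and position, those with 1 to 4 by counts and position. Some genes of the lists are not reported here. The genes, lists and alternatives were chosen with earlier results of these data known. Alternatives were longer peaks only, joined peaks, any overlap, peaks in no other gene, at least 3 peaks, members without Maml2 and, chosen after seeing the data, spans extended by 5 kb.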

Additional observations from a re-analysis of the deposited data

How the results depend on the processing

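The number of members with a peak (13) ranged from 10 with at least 3 peaks per gene to 13, and was 11 with only the longer peaks (median length or more) and 12 with only peaks in no other annotated gene, where Mib1 is lost. For the counts of 11 and 12, the share of all protein-coding genes under the same filter is not given here. They cannot be set against a background. Of 51 values under alternatives, 43 stayed within 1.5 times of the main count or within the 95% binomial interval of the main value. Many of these did not change at all. Any overlap, and only peaks in no other protein-coding gene, returned the main value for every result. The strand share was 100% throughout, so the 43 overstates how far the results were tried. That interval treats peaks as independent, although they come from 1 list and lie close together. The alternatives also reuse the same peaks, so it serves as a yardstick only and measures no spread between replicates. The other 8 values moved further, and why they did was not tested. With only the longer peaks, members held 282 peaks and Maml2 241, its share was 85.5% and its median spacing 485 bases. With peaks within 50 bases joined, the share of Maml2 was 75.5% and its median spacing 546.5 bases. Joining also lowered the peaks in members from 467 to 355 and those in Maml2 from 374 to 268. These 2 counts stayed within 1.5 times of the main ones, but they depend on how neighbouring peaks are split. Members other than Maml2 held 93 peaks. With at least 3 peaks required, 11 of the 44 other pathway genes remained in place of 17. Among all protein-coding genes the share went from 18.9% to 11.4%. The median position in Maml2 ranged from 39.7 to 42.1% of the span, and all peaks of each member were on 1 strand in every setting. Extending the spans by 5 kb, an alternative chosen after seeing the data, gave 472 peaks in members. No paired analysis was possible because the list has no value per library, and for the same reason no replicate could be left out. Depth per library is unknown, so a gene without a peak may be one with too few reads.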
